A study of Mus musculus with 12 samples.

Results

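The nuclear genes for the mitochondrial matrix chaperones and proteases were followed across a wild-type and a mutant huntingtin striatal line, each with and without heat shock. The members are Hspd1, Hspe1, Hspa9, Trap1, Dnaja3, Grpel1, Lonp1, Clpp and Clpx. They were taken as every probe set that the array annotation gives to one of these 9 genes, whatever its values. This gave 19 of the 45037 probe sets tested, and each of the 19 names no other gene. Hspa9 has 5 probe sets, Dnaja3 has 3, and Hspe1, Trap1, Clpp and Clpx have 2 each, while Hspd1, Grpel1 and Lonp1 have 1 each.

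The cells are STHdhQ7/Q7 (Q7 cells) and STHdhQ111/Q111 (Q111 cells), lines made from the striatum of embryonic wild-type and huntingtin knock-in mice. Q7 cells carry a short polyglutamine tract in huntingtin, and Q111 cells carry the expanded tract on both alleles. Total RNA was hybridised to Affymetrix mouse arrays in 4 groups of 3 arrays: Q7 cells at 33 °C, Q7 cells after 6 h at 42 °C, Q111 cells at 33 °C and Q111 cells after 6 h at 42 °C. All 4 groups were grown in serum with G418. Each genotype is represented by 1 line, so genotype and line cannot be told apart. Such lines are known to be immortalised with a temperature-sensitive large T antigen that is active at the growth temperature, a background point that the labels do not state. The labels do not say whether the 3 arrays of a group are separate cultures, so the spread that the p-values are based on may be technical.

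Most mitochondrial proteins are made in the cytosol and enter the matrix unfolded. Hspa9, the mitochondrial member of the heat shock cognate family, pulls them in and folds them with the J-domain co-chaperone Dnaja3 and the nucleotide exchange factor Grpel1. The chaperonin Hspd1 and its lid Hspe1 enclose and fold matrix proteins, and Trap1 is the mitochondrial relative of the cytosolic ninety-kilodalton chaperones. Lonp1 and the complex of Clpx, an unfoldase, with Clpp, a peptidase, degrade damaged matrix proteins. Many of these genes are known as markers of the mitochondrial unfolded protein response, and Hspd1 and Hspe1 are also known heat shock genes that are transcribed away from each other from a common promoter.

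RefSeq promoter windows (250 bases before to 50 after a transcription start, build GRCm38.p6) were matched by symbol for 8 of the 9 members, in 9 windows, because Hspd1 has 2 starts. Hspa9 had no window in the table used. The windows were searched on both strands for adjoining units of the heat shock element, the motif that heat shock factors bind. The bases between the first Hspd1 start and the Hspe1 start are shown because they hold the only run of 3 or more adjoining units among the members. They lie at chr1:55087933-55088147, plus strand, read towards Hspe1, with the heat shock units in capitals. The window of Grpel1, the other member that rose in both lines, is shown for contrast (chr5:36464935-36465184, plus strand) and has no unit pair, so no capitals.
Hspd1-Hspe1: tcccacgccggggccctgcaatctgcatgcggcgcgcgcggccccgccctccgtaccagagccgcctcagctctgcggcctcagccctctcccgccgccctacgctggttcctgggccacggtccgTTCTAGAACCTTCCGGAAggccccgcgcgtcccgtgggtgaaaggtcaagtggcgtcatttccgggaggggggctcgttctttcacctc
Grpel1: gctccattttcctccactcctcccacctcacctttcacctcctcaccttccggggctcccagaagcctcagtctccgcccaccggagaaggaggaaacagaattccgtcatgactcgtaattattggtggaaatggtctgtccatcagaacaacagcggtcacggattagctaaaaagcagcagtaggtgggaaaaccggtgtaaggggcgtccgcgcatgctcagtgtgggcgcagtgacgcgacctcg

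The capitals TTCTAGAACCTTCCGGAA are 18 bases that match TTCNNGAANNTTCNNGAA, 4 units in a row, at -89 to -72 from the Hspe1 start. On the other strand they lie at -144 to -127 from the first Hspd1 start, which lies 216 bases from the Hspe1 start. The second Hspd1 start is 95 bases on the far side of the Hspe1 start, and its own window holds no unit pair. A run of 4 units, in this form or as GAANNTTCNNGAANNTTC, was found in 8 of 32851 windows of the table (0.0244%). A run of 3 units (TTCNNGAANNTTC or GAANNTTCNNGAA) was found in 198 (0.603%), and every run of 4 also holds runs of 3 and pairs. Among the other members the Clpp window alone held a pair, TTCNNGAA at 33 to 40 bases after the start, a match present in 8.52% of all windows. The other pair, GAANNTTC, was in 7.86% of windows and, among the members, only in the shared element. Trap1 held the cAMP response element TGACGTCA at -47 to -40 (1.79% of windows). CCAAT was in the windows of Dnaja3, Grpel1, Clpx and the second Hspd1 start (37.4% of windows). The C/EBP-ATF element TGATGNAA (3.97% of windows) and the palindromic NRF1 site (0.971%) were in no member window. A match describes letters only.

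**Figure D1:**
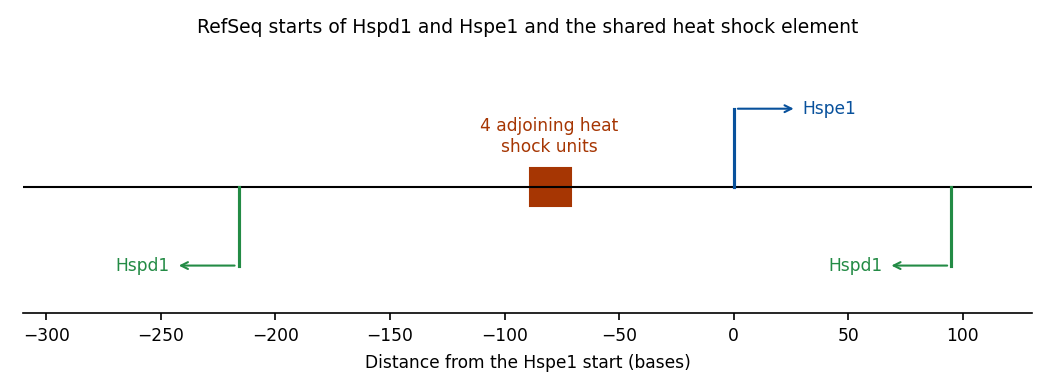
Map of the interval between Hspd1 and Hspe1, with the distance in bases from the Hspe1 start on the x axis, arrows for the RefSeq starts and their direction, and a box for the 18 bases of 4 adjoining heat shock units. The box lies between the first Hspd1 start, 216 bases to the left, and the Hspe1 start, and transcription from these starts runs away from it. From the second Hspd1 start, 95 bases to the right of the Hspe1 start, transcription runs towards the box.

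Values below are log2 levels as deposited, made by the robust multi-array average (RMA), and a difference of 1 is a doubling. Differences were tested with limma in 1 fit over all 45037 probe sets, with Benjamini-Hochberg adjustment over all of them, and called at an adjusted p under 0.05. Control probe sets for bacterial transcripts absent from the samples reached 5.14, which bounds the background range. Of the 19 member probe sets 18 had a mean above it, and Dnaja3 1432066_at (mean 4.33) did not. Htt, the huntingtin gene, had a lower level in untreated Q111 cells, by a log2 difference from Q7 cells of -1.29 (SE 0.17, adjusted p = 0.000575). An RNA level does not read the tract length, so this difference does not check the labels. Markers gave the lines little of a striatal neuron's profile: of 7 markers of striatal projection neurons only Foxp1 was above background on all 12 arrays and Drd2 was above it on none. Of 8 neuronal markers Map2 alone was above on all arrays, against 3 of 7 for neural progenitors (Nes, Msi1 and Vim) and 5 of 7 for fibroblasts (Col1a1, Col1a2, Col3a1, Dcn and Pdgfrb). In such cultures a smaller share of cells of one type and less RNA per cell cannot be told apart. The difference between the 3' and 5' actin control probe sets, a sign of RNA quality, was 0.38 to 0.69 in Q7 cells at 33 °C and 1.35 to 1.60 after heat shock. The ranges in Q111 cells were 0.49 to 1.14 and 0.99 to 1.39.

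The chaperonin genes rose after heat shock in both lines. The brighter probe set of Hspe1 (1450668_s_at) read 13.00, 13.01 and 13.02 in Q7 cells at 33 °C and 13.72, 13.76 and 13.80 after heat shock. The Q111 arrays read 12.79, 12.79 and 12.92 at 33 °C and 13.74, 13.77 and 13.78 after heat shock. Every heat-shocked array was thus above every untreated array, and the heat-shocked arrays of the 2 lines overlapped. The rise was 0.75 in Q7 cells (SE 0.11, 1.68-fold, adjusted p = 0.000735) and 0.93 in Q111 cells (SE 0.11, 1.90-fold, adjusted p = 0.000133). The second Hspe1 probe set (1422579_at) moved further, from 12.16, 12.25 and 12.45 to 13.53, 13.61 and 13.61 in Q7 cells, a rise of 1.29 (SE 0.13, 2.45-fold, adjusted p = 7.48e-05). The Q111 arrays went from 11.80, 11.85 and 12.09 to 13.49, 13.53 and 13.47, a rise of 1.58 (SE 0.13, 2.99-fold, adjusted p = 1.72e-05). Both probe sets of Hspe1 hence rose in both lines without overlap between arrays. The brighter one lies close to the highest level of any probe set on these arrays, 14.17 to 14.36.

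Hspd1 started lower in Q111 cells and ended close to Q7 cells. Its probe set read 12.65, 12.59 and 12.37 in Q7 cells at 33 °C and 12.99, 12.99 and 12.97 after heat shock. The rise of 0.45 (SE 0.13, 1.36-fold) had an adjusted p of 0.0266. In Q111 cells Hspd1 read 11.91, 12.03 and 11.96 at 33 °C and 12.85, 12.70 and 12.95 after heat shock, a rise of 0.87 (SE 0.13, 1.83-fold, adjusted p = 0.000472). No untreated array reached a heat-shocked array of its line. The call in Q7 cells is close to the threshold and was lost without 1 of 5 arrays: replicate 2 (adjusted p = 0.061) or 3 (0.0953) at 33 °C, or replicate 1 (0.0631), 2 (0.0759) or 3 (0.0753) after heat shock, with rises of 0.36 to 0.47. RefSeq lists 23 pseudogenes of Hspd1 and 7 of Hspe1 by name, so the probes of both may read such copies too.

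Of Hspa9 and its partners, only Grpel1 was called higher on its brightest probe set with the levels as deposited; with median centring, where each array is centred on its median level over genes, Hspa9 was also called higher in Q111 cells (0.68, adjusted p = 0.00322). Grpel1 read 12.14, 12.25 and 12.42 in Q7 cells at 33 °C and 12.91, 12.84 and 12.91 after heat shock, a rise of 0.62 (SE 0.14, 1.53-fold, adjusted p = 0.00834). Q111 arrays went from 11.89, 11.95 and 12.22 to 12.83, 12.87 and 12.63, a rise of 0.76 (SE 0.14, 1.69-fold, adjusted p = 0.00179). The arrays of the 2 temperatures did not overlap in either line. Hspa9 itself, on its brightest probe set (1418504_at), read 12.66, 12.69 and 12.51 in Q7 cells at 33 °C and 12.40, 12.22 and 12.22 after heat shock. This difference of -0.34 (SE 0.12) missed the threshold with an adjusted p of 0.0662. It was called in 6 of the 23 alternative analyses, and with median centring the difference was 0.01. In Q111 cells the probe set read 12.18, 12.18 and 12.30 at 33 °C and 12.20, 12.12 and 12.18 after heat shock, and the 95% interval of the difference was -0.32 to 0.22. The next brightest Hspa9 probe set (1418503_at) gave differences of -0.32 in Q7 and -0.08 in Q111 cells, neither called. Another, dimmer one (1431274_a_at, mean 6.58) was called lower in Q7 cells (-0.75, SE 0.22, adjusted p = 0.0273). That call was lost with median centring and without replicate 1 (adjusted p = 0.0925) or 2 (0.0825) at 33 °C, or replicate 2 (0.106) or 3 (0.105) after heat shock. The other 2, with means of 5.49 and 5.35 near the background bound, were called in no comparison with the levels as deposited. With median centring 1453811_at was called higher in Q7 (0.53, adjusted p = 0.0273) and Q111 cells (0.88, adjusted p = 0.000834). In Q111 cells 1447728_x_at was called higher with median centring (0.42) but lower with centring on ribosomal protein genes (-0.51). It was also called lower in Q7 cells with array weights (-0.29).

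**Figure D2:**
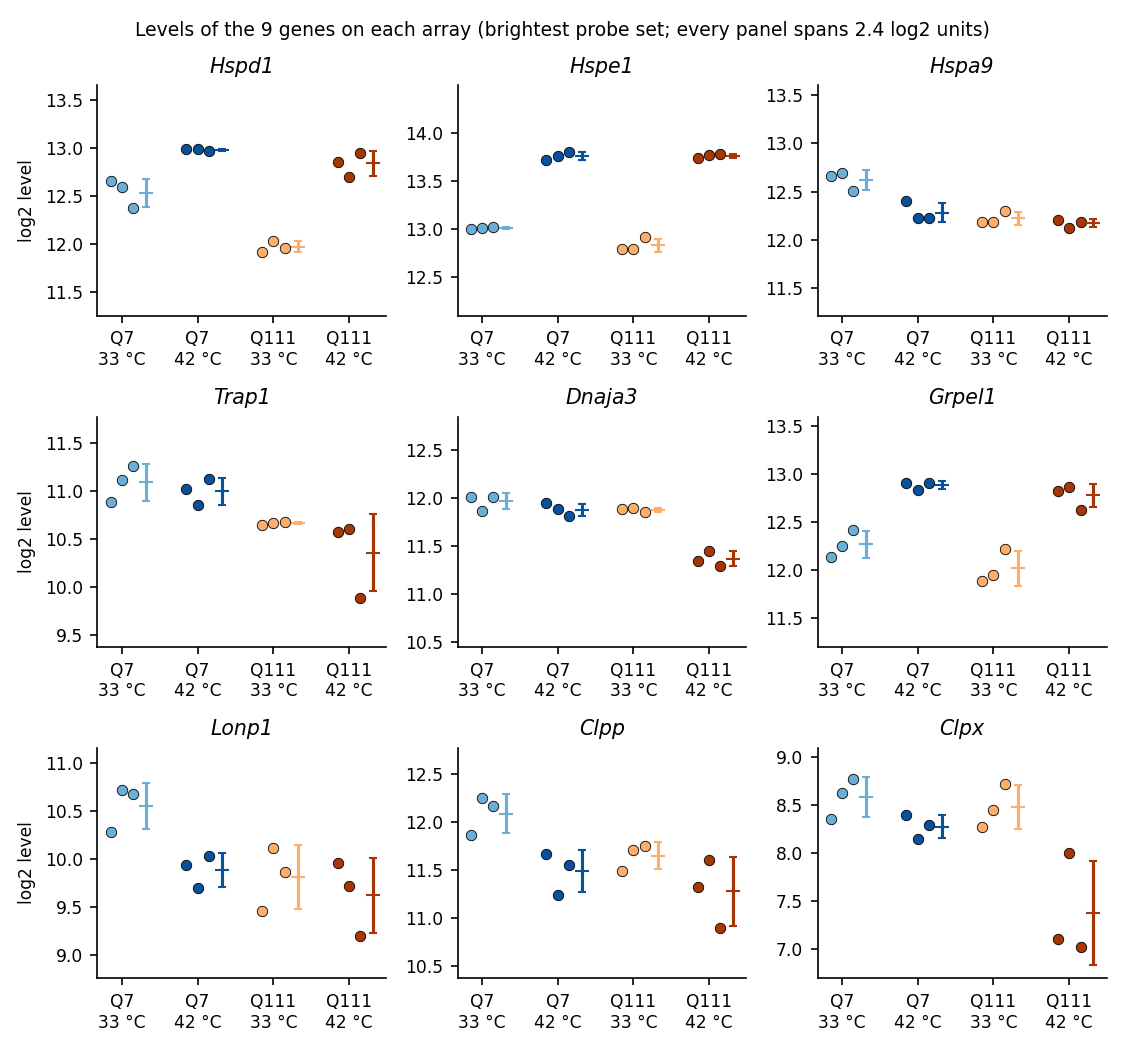
Log2 levels (y axis) of the brightest probe set of each of the 9 genes on each of the 12 arrays, with 1 point per array, and the mean with its SD (n = 3) beside each group. Every panel spans 2.4 log2 units around its own centre, so heights compare within a gene only. Hspd1, Hspe1 and Grpel1 are higher on every heat-shocked array than on every untreated array of the same line, and replicate 3 of heat-shocked Q111 cells is the lowest array for Trap1, Dnaja3, Lonp1, Clpp and Clpx.

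The co-chaperone Dnaja3 changed in Q111 cells. Its brightest probe set (1449935_a_at) read 12.01, 11.87 and 12.01 in Q7 cells at 33 °C and 11.95, 11.89 and 11.82 after heat shock, and the groups overlapped (-0.08, SE 0.12, adjusted p = 0.669). In Q111 cells it read 11.89, 11.90 and 11.86 at 33 °C and 11.35, 11.45 and 11.29 after heat shock, without overlap. It fell by 0.52 (SE 0.12, 1.43-fold, adjusted p = 0.00531), but median centring turned the difference to 0.21 with no call, and with the actin difference as a covariate it missed the threshold (-0.54, adjusted p = 0.0566). The second probe set (1420629_a_at) gave -0.16 in Q111 cells (adjusted p = 0.577), and 0.56 with median centring (adjusted p = 0.0216). The last (1432066_at), called higher in Q111 cells (1.49, SE 0.32, adjusted p = 0.00393), is in background range on 10 of 12 arrays. The 2 probe sets above background thus had the same sign as deposited, with 1 of them called. Trap1 (1416170_at) read 10.89, 11.12 and 11.26 in Q7 cells at 33 °C and 11.02, 10.86 and 11.13 after heat shock, with overlap. Q111 arrays read 10.65, 10.67 and 10.68 at 33 °C and 10.57, 10.61 and 9.89 after heat shock, where replicate 3 stood apart. Neither difference was called for Trap1 (-0.09, adjusted p = 0.801 in Q7 cells; -0.31, adjusted p = 0.222 in Q111 cells), while in Q111 cells median centring called it higher (0.42, adjusted p = 0.046) and ribosomal centring lower (-0.51, adjusted p = 0.0397).

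No protease gene was called higher on its brightest probe set with the levels as deposited; with median centring Lonp1 was, in Q111 cells (0.54, adjusted p = 0.0243). Lonp1 read 10.28, 10.72 and 10.67 in Q7 cells at 33 °C and 9.93, 9.69 and 10.03 after heat shock. The groups did not overlap, and the difference of -0.67 (SE 0.23) had an adjusted p of 0.0569, just outside the threshold. It was called in 9 of the 23 alternatives. In Q111 cells Lonp1 read 9.46, 10.11 and 9.86 at 33 °C and 9.95, 9.72 and 9.19 after heat shock, with overlap (-0.19, SE 0.23, adjusted p = 0.526). Clpp (1416616_s_at) was called lower in Q7 cells, from 11.87, 12.25 and 12.17 to 11.67, 11.24 and 11.55, without overlap (-0.61, SE 0.20, 1.52-fold, adjusted p = 0.0481). This call sits at the threshold and was lost in 12 of the 23 alternatives. Of these, 8 leave out 1 array: replicate 2 (adjusted p = 0.16) or 3 (0.116) of Q7 cells at 33 °C, replicate 2 (0.177) or 3 (0.0995) of heat-shocked Q7 cells, replicate 1 (0.056), 2 (0.0634) or 3 (0.0641) of Q111 cells at 33 °C, or replicate 1 of heat-shocked Q111 cells (0.0632). With the replicate number as a block its adjusted p was 0.0706. In Q111 cells Clpp read 11.49, 11.71 and 11.75 at 33 °C and 11.33, 11.61 and 10.90 after heat shock, with overlap and no call (-0.37, adjusted p = 0.159). Its second probe set gave -0.65 and -0.38, neither called.

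Clpx was called lower in Q111 cells on both probe sets. The brighter one (1423447_at) read 8.35, 8.62 and 8.77 in Q7 cells at 33 °C and 8.39, 8.14 and 8.29 after heat shock, with overlap (-0.31, SE 0.25, adjusted p = 0.421). In Q111 cells it read 8.27, 8.44 and 8.72 at 33 °C and 7.10, 8.00 and 7.02 after heat shock. All heat-shocked Q111 arrays were below the untreated ones, replicate 2 by the least, and the fall was -1.10 (SE 0.25, 2.15-fold, adjusted p = 0.00494). The dimmer one (1439342_at) differed by -1.01 (SE 0.34, adjusted p = 0.0326) in Q111 cells and by 0.23 (adjusted p = 0.68) in Q7 cells. Its heat-shocked Q111 arrays read 4.58, 5.08 and 5.63, and 2 of them are in background range. Median centring reduced these falls in Q111 cells to -0.38 and -0.28, with no call, and with the actin covariate they were not called either (-1.15, adjusted p = 0.0569, and -1.16, adjusted p = 0.134). The dimmer set's call was also lost without replicate 1 (adjusted p = 0.101) or 3 (0.0719) at 33 °C, or replicate 1 (0.112) or 2 (0.0648) after heat shock.

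Over all members, 4 probe sets were higher and 2 lower after heat shock in Q7 cells, and 13 were not called. Of all probe sets 24.1% were called in this comparison, 10% higher and 14.1% lower. In Q111 cells 5 were higher and 3 lower, against 42.1% of all probe sets called, 19.8% higher and 22.3% lower. Counting 1 probe set per gene from the same fit, 3 of the 9 genes were higher and 1 lower in Q7 cells, where 28% of genes were called, 11.2% higher and 16.8% lower. For Q111 cells the counts were 3 higher and 2 lower, where 45.7% were called, 18.5% higher and 27.2% lower. The median difference over the 19 probe sets was -0.09 in Q7 and -0.19 in Q111 cells, beside 0.02 and 0.05 over all probe sets. The number of member calls is near the background share in both lines, and the 3 genes that were higher were the same in each: Hspd1, Hspe1 and Grpel1.

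Scaling moves the members as a block. The median level over genes was lower on heat-shocked arrays, so centring on it adds 0.35 to every change in Q7 cells and 0.73 in Q111 cells, although the median of the changes over genes was 0.00 and -0.02. By contrast, centring on ribosomal protein genes adds -0.08 and -0.21. With median centring 13 member probe sets were higher and 0 lower in Q111 cells. Of all 45037 probe sets 28198 were called higher and 4442 lower there with this centring. The rises of Hspe1 and Grpel1 kept their direction and call in both lines under all 3 other scalings. Hspd1 did so in Q111 cells, while in Q7 cells its call was lost with ribosomal centring (0.37, adjusted p = 0.0807) and a further quantile normalization (0.38, adjusted p = 0.0617). With the actin difference as a covariate Hspd1, Grpel1 and both Hspe1 probe sets were still called higher in Q111 cells, while the calls of both Clpx and both called Dnaja3 probe sets were lost (Dnaja3 1432066_at 1.21, adjusted p = 0.0978). In Q7 cells, where this measure does not overlap between temperatures, it left 1 of the 6 calls, the second probe set of Hspe1. The rises had values of 0.76 for the brighter Hspe1 probe set (adjusted p = 0.163), 0.77 for Grpel1 (0.263) and 0.37 for Hspd1 (0.639).

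**Figure D3:**
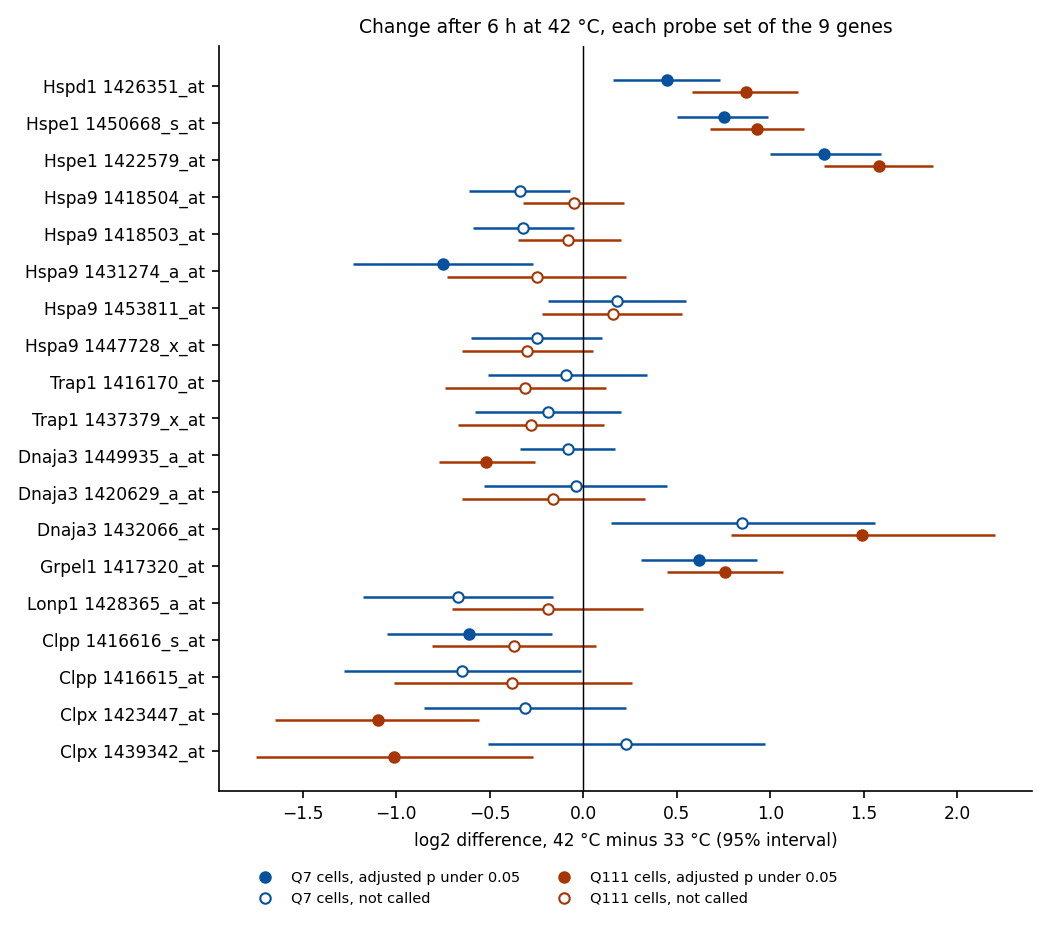
Change after heat shock (x axis, log2 difference of 42 °C minus 33 °C with its 95% interval from limma) of the 19 probe sets in Q7 and Q111 cells, 3 arrays per group. Filled points passed an adjusted p of 0.05. Both Hspe1 probe sets, Hspd1 and Grpel1 lie to the right of 0 in both lines, and both Clpx probe sets lie to the left in Q111 cells, where median centring would shift every point right by 0.73.

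Whether the lines responded differently was asked by the difference of their heat shock effects. No member probe set was called by limma (2.68% of all probe sets were), and 4 had an unadjusted p under 0.05. The rise of Hspd1 was larger in Q111 cells by 0.42 (SE 0.18, 95% interval 0.02 to 0.82, unadjusted p = 0.0425, adjusted p = 0.273). The change of Dnaja3 1449935_a_at was lower in Q111 cells by -0.43 (SE 0.17, unadjusted p = 0.0241, adjusted p = 0.209). Both Clpx probe sets were lower by -0.79 (SE 0.35, adjusted p = 0.277) and -1.24 (SE 0.48, adjusted p = 0.21). For Hspe1 the interval of the difference was -0.17 to 0.53 on the brighter probe set and -0.12 to 0.70 on the other, and for Grpel1 it was -0.30 to 0.58. A different response to heat shock is therefore not shown for any member, nor is an equal one. Without replicate 2 of heat-shocked Q111 cells, the array with the highest Clpx level of that group, Clpx 1423447_at passed (-1.11, adjusted p = 0.0451). With array weights 4 probe sets passed: both of Clpx, Hspd1 and Hspa9 1431274_a_at.

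At 33 °C the lines differed in Hspd1. The 3 Q111 arrays, 11.91 to 12.03, were all below the 3 Q7 arrays, 12.37 to 12.65, a difference of -0.57 (SE 0.13, 1.48-fold, adjusted p = 0.0209). It was the 1 member probe set called, where 6.78% of all probe sets were called and 3.62% were called lower. The call was lost without replicate 1 (adjusted p = 0.0859) or 2 (0.0864) of Q7 cells or replicate 1 (0.0742) or 3 (0.0696) of Q111 cells, with differences of -0.51 to -0.56. It was also lost with median centring (-0.56, adjusted p = 0.101), with centring on ribosomal protein genes (-0.43, adjusted p = 0.112) and with only the groups compared in the fit (adjusted p = 0.0631). Lonp1 (-0.74, SE 0.23, adjusted p = 0.0953) and Hspa9 1418504_at (-0.40, SE 0.12, adjusted p = 0.0882) were lower on every Q111 array than on every Q7 array but missed the threshold. Lonp1 passed with median centring (-0.74, adjusted p = 0.0358), with array weights (0.0202) and without replicate 3 of heat-shocked Q111 cells (0.0397), and Hspa9 1418504_at with a variance trend (0.00607) and array weights (0.0463). On the brightest probe set all 9 genes had differences at or below -0.08 and none was called higher, and the median over the 19 probe sets was -0.37, beside 0.00 over all probe sets. Of the other probe sets Clpx 1439342_at (0.35), Hspa9 1453811_at (0.10) and Hspa9 1447728_x_at (0.11) were positive. The shared sign did not hold in every alternative: Dnaja3 1449935_a_at reached 0.05 and Clpx 1423447_at 0.03. Hspe1 differed by -0.18 (95% interval -0.42 to 0.07) on its brighter probe set and by -0.37 (-0.66 to -0.08, adjusted p = 0.155) on the other.

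After heat shock the difference in Hspd1 was not called (-0.15, 95% interval -0.43 to 0.14), although the Q111 arrays, 12.70 to 12.95, all stayed below the Q7 arrays, 12.97 to 12.99. The brighter Hspe1 probe set differed by 0.00 (-0.24 to 0.25). Grpel1 differed by -0.11 (-0.42 to 0.20). A further 3 probe sets were lower in Q111 cells, where 15.4% of all probe sets were called and 10.7% were called lower. Dnaja3 1449935_a_at was lower by -0.51 (SE 0.12, adjusted p = 0.0129), Clpx 1423447_at by -0.90 (SE 0.25, adjusted p = 0.0314) and Trap1 1416170_at by -0.65 (SE 0.19, adjusted p = 0.0461). None of the 3 overlapped between lines, and the second Trap1 probe set gave -0.49 (adjusted p = 0.0902). Median centring adds 0.38 to this comparison and left no call (-0.14, -0.52 and -0.27). The Trap1 call was lost in 15 of the 23 alternatives, including each of 10 single arrays left out. Without replicate 3 of heat-shocked Q111 cells the Trap1 difference was -0.41 (adjusted p = 0.107), and without the others its adjusted p was at most 0.161. Clpx lost its call without replicate 1 (adjusted p = 0.11) or 3 (0.0975) of heat-shocked Q7 cells or replicate 1 (0.0929) or 3 (0.093) of heat-shocked Q111 cells. Clpx was also not called with a further quantile normalization (-0.63, adjusted p = 0.104), the actin covariate (-0.88, adjusted p = 0.074) or only the groups compared (adjusted p = 0.118). Dnaja3 lost its call without replicate 1 of heat-shocked Q7 cells (0.0612) and with only the groups compared (0.0651). With the replicate number as a block Trap1 had an adjusted p of 0.0711.

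Cell type markers also differed between the lines. At 33 °C the summed linear level of the 8 neuronal markers was 3010 to 3820 in Q7 and 684 to 936 in Q111 cells, and that of the 7 fibroblast markers was 15100 to 16900 in Q7 and 25700 to 27100 in Q111 cells. After heat shock the neuronal sums were 2700 to 3120 and 847 to 911, and the fibroblast sums 10100 to 10600 and 12000 to 15600. Other lists did not follow 1 direction. At 33 °C the striatal projection neuron sum was higher in Q111 cells (2860 to 3940 against 1790 to 2700). So were those of astrocytes (730 to 2020 against 376 to 423), oligodendrocyte lineage (1540 to 1760 against 221 to 608) and microglia (396 to 577 against 283 to 328). The neural progenitor sum was lower (14200 to 15100 against 17400 to 17800), and the endothelial sums overlapped. Linear sums weigh bright markers most, so they need not stand for a whole list. The brightest were Foxp1 (mean log2 level 10.93) for striatal projection neurons and Slc1a3 (7.78) for astrocytes. They were Pdgfra (8.02) for the oligodendrocyte lineage and Cd68 (7.79) for microglia. Olig1, Olig2, Mbp, Aif1 and Itgam of the last 2 lists were above background on no array. The part of these markers in the member differences was not tested.

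**Figure D4:**
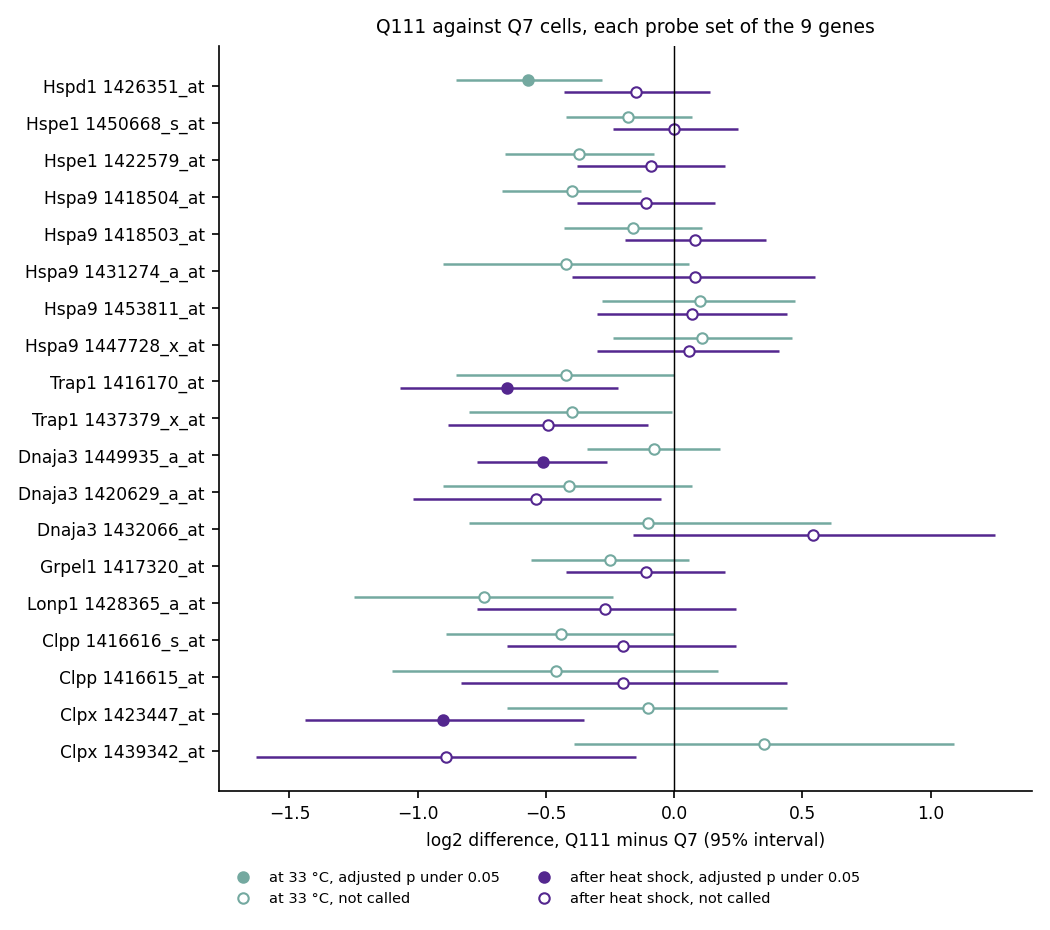
Difference between the lines (x axis, log2 difference of Q111 minus Q7 cells with its 95% interval from limma) of the 19 probe sets at 33 °C and after heat shock, 3 arrays per group. Filled points passed an adjusted p of 0.05: Hspd1 at 33 °C (-0.57), and Trap1, Dnaja3 and Clpx after heat shock (-0.65, -0.51 and -0.90), the latter 3 with no call after median centring.

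The rest of the mitochondrial protein quality system was described with 6 lists of 100 genes, of which 92 were measured, each on its brightest probe set in the same fit. Over all genes 11.2% were called higher and 16.8% lower in Q7 cells, and 18.5% higher and 27.2% lower in Q111 cells. Among 15 other proteases 2 were higher and 7 lower in Q7 cells, and 2 higher and 5 lower in Q111 cells. Median centring gave 2 higher and 3 lower in Q7 cells and turned the balance in Q111 cells to 8 higher and 2 lower. With it 28198 of all 45037 probe sets were called higher and 4442 lower in Q111 cells, and 9488 and 3814 in Q7 cells. The shares over genes given above are for the levels as deposited, so they do not apply to median-centred counts of this or the later lists. The higher ones as deposited were the same in both lines: Immp1l, a subunit of the inner membrane peptidase, by 1.33 (SE 0.16, adjusted p = 0.000216) and 1.13 (SE 0.16, adjusted p = 0.000376), and Yme1l1, an inner membrane protease, by 0.80 and 0.82. The matrix-facing relatives of Yme1l1 moved the other way. Afg3l1 fell by 1.96 in Q7 and by 1.43 in Q111 cells, Spg7 differed by -1.30 in Q7 and -1.21 in Q111 cells, and Afg3l2 by -1.01 and -1.46, all called. The median over the list was -0.34 and -0.01, beside 0.00 and -0.02 over all genes.

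Among 24 genes of protein import 7 were higher and 4 lower in Q7 cells, and 11 higher and 5 lower in Q111 cells. Median centring gave 12 higher and 3 lower in Q7 and 16 higher and 2 lower in Q111 cells. Timm8b, a small chaperone of the intermembrane space, rose by 1.16 (SE 0.16, adjusted p = 0.000429) in Q7 and 1.21 (SE 0.16, adjusted p = 0.000222) in Q111 cells. Timm10, of the same family, rose by 0.61 and 1.27, while on their brightest probe sets Timm9 (0.31 and -0.02), Timm10b (0.01 and 0.03) and Timm13 (-0.75 and -0.50) were not called. A dimmer Timm10b probe set (mean 8.15) was called higher in both lines, by 2.10 (adjusted p = 2.43e-05) and 0.99 (adjusted p = 0.00122). Gfer and Chchd4, the oxidase and receptor that trap such proteins by disulfide bonds, rose by 1.16 and 0.92 in Q7 and by 0.85 and 0.99 in Q111 cells. Tomm40, the pore of the outer membrane, was lower by -2.15 in Q7 and -1.84 in Q111 cells, and Mtx1, of the outer membrane sorting complex, by -1.14 and -1.20. Other probe sets of Tomm20 and Tomm70a were called in the opposite direction from the brightest one. The list medians were 0.22 and 0.32.

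Of 14 regulators of mitochondrial stress and biogenesis 5 were higher in Q7 and 3 in Q111 cells, and none was called lower on its brightest probe set. Median centring gave 10 and 13 higher, and ribosomal centring gave 1 higher and 1 lower in Q111 cells. Nrf1, counted as higher (0.61 and 0.51), has a dimmer probe set called lower in both lines (-0.75 and -0.99) and another called lower in Q111 cells (-0.78). Cebpb, a partner of stress transcription factors, rose by 1.39 (SE 0.14, adjusted p = 7.25e-05) in Q7 and 1.96 (SE 0.14, adjusted p = 8.76e-06) in Q111 cells. Atf5, the factor most often linked to the mammalian mitochondrial unfolded protein response, read 10.06, 10.45 and 10.19 in Q7 cells at 33 °C and 11.80, 11.60 and 11.55 after heat shock, a rise of 1.42 (SE 0.28, adjusted p = 0.00376). The Q111 arrays read 9.29, 10.56 and 9.86 at 33 °C and 10.49, 10.54 and 9.97 after heat shock, with overlap and no call, and the difference of the 2 effects was not called (-0.99, adjusted p = 0.231). Between the heat-shocked lines Atf5 differed by -1.32, Q111 minus Q7 (adjusted p = 0.0091). Gabpa, a regulator of mitochondrial biogenesis, rose by 0.64 and 0.54.

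Of 11 counterparts in the cytosol and endoplasmic reticulum 3 rose in each line and none was called lower on its brightest probe set. Median centring gave 7 higher in Q7 cells and all 11 in Q111 cells, and ribosomal centring 3 higher and 2 lower in Q111 cells. Dimmer probe sets did not all follow these counts. A dimmer probe set of Dnaja2 was called lower in both lines, and a dimmer one of Hspa8 was called higher in both. For Hyou1 a dimmer probe set, with its mean in background range, was called lower in Q111 cells. Hspa1a, the inducible cytosolic chaperone, went from 6.07, 6.26 and 5.55 to 11.42, 11.42 and 11.49 in Q7 cells, a rise of 5.48 (SE 0.22, adjusted p = 6.49e-07). In Q111 cells it went from 5.87, 6.31 and 5.68 to 12.51, 12.14 and 12.65, a rise of 6.48 (SE 0.22, adjusted p = 1.31e-07), and its near-identical copy cannot be told apart. Dnaja1, a cytosolic J-domain protein, rose by 0.87 and 0.85, close in size to the changes of Hspe1 and Grpel1. Of 17 abundant mitochondrial proteins outside this system 1 was higher and 3 lower in Q7 cells, and 2 were higher and 4 lower in Q111 cells. Cycs, the soluble electron carrier, was higher by 0.49 (adjusted p = 0.0445) and 0.94, while Ogdh, a citric acid cycle enzyme, was lower by -1.74 and -2.24, with a second probe set called higher (0.80) in Q7 cells. In Q111 cells Cox4i1, a subunit of cytochrome c oxidase, was higher by 0.44 and Hadha, an enzyme of fatty acid oxidation, was lower by -0.96, and in Q7 cells Pdha1, a pyruvate dehydrogenase subunit, was lower by -0.49. Median centring gave 2 higher and 1 lower in Q7 cells and 11 higher and 1 lower in Q111 cells for this list.

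Among 11 other mitochondrial chaperones and co-chaperones 2 were higher and 1 lower in Q7 cells, and 4 higher and 3 lower in Q111 cells. Median centring gave 4 higher and 0 lower in Q7 and 7 higher and 1 lower in Q111 cells. Dnajc11, of the inner membrane organising system, was lower by -0.80 and -1.75. Hscb, the co-chaperone of iron-sulfur cluster transfer, rose by 1.06 in Q111 cells. Clpb, a disaggregase, was lower by -1.35 in Q111 cells (adjusted p = 0.0495), and Dnajc28, of the J-domain family, was higher by 0.78 in Q7 cells. Dnajc15, a J-domain co-chaperone of the import motor, separated the lines. It read 2.98, 3.06 and 3.58 in Q7 cells at 33 °C, all in background range, and 9.54, 9.97 and 10.22 in Q111 cells. Set against the background bound this is at least 27.2-fold higher in Q111 cells. After heat shock it read 6.56, 4.58 and 4.73 in Q7 and 11.81, 11.68 and 11.45 in Q111 cells. In Q111 cells this was a rise of 1.73 (adjusted p = 0.00905), and in Q7 cells 2 of the 3 heat-shocked arrays stayed in background range.

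Of the 92 listed genes 35 were called in Q7 and 42 in Q111 cells, where 28% and 45.7% of all genes were called. The count in Q111 cells is near that share. Median centring turned the sign of 5 of the 42 (Tomm34, Tomm70a, Samm50, Pdha1 and Vdac1, all called lower as deposited) and of none of the 35. The other 2 scalings and the actin covariate turned none, but with the covariate 2 of the 35 calls in Q7 cells and 15 of the 42 in Q111 cells remained.

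**Figure D5:**
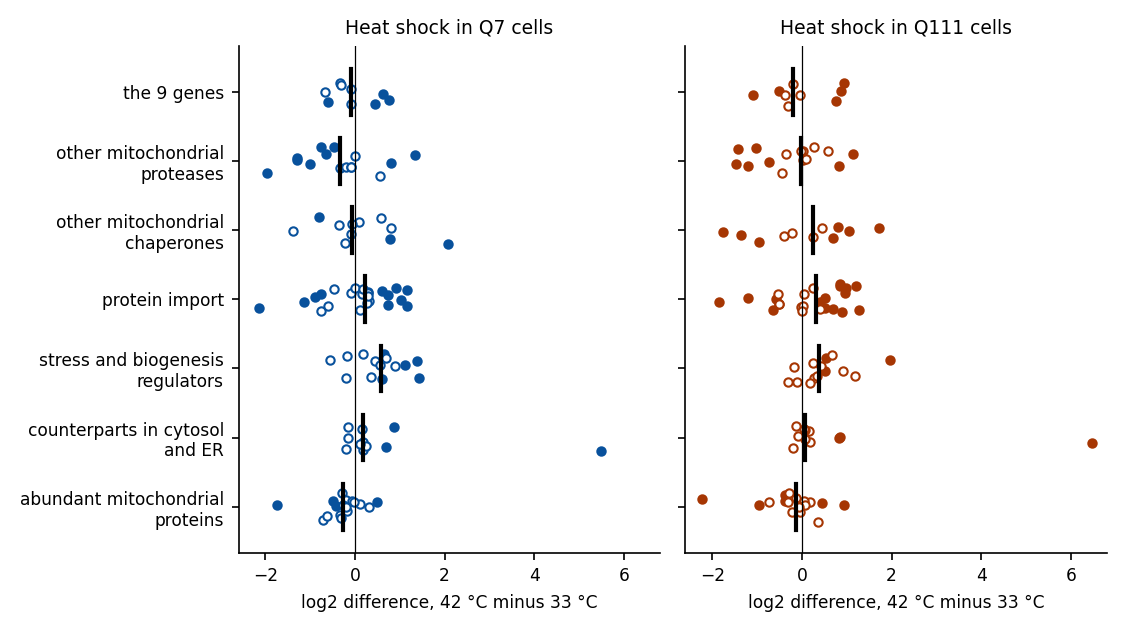
Change after heat shock (x axis, log2 difference of 42 °C minus 33 °C) of the 9 genes and of the 92 genes of the 6 lists (rows; ER stands for endoplasmic reticulum), in Q7 cells on the left and Q111 cells on the right. Each point is the brightest probe set of a gene, filled where the adjusted p was under 0.05, and black bars are medians. Hspa1a stands alone at 5.48 and 6.48, and every list but 2, the regulators and the counterparts, has called genes on both sides of 0.

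The genes whose levels followed Hspd1 most closely over the 12 arrays, among 12202 genes above background, were Rragd (Pearson r = 0.975), Ipo7 (0.966), Rpl14 (0.958), Snhg10 (0.954) and Dpy30 (0.952). All 5 had positive differences after heat shock in both lines and negative ones between untreated Q111 and Q7 cells: Rragd by 1.14 and 2.00 with heat shock and -1.41 at 33 °C, Ipo7 by 0.62, 1.01 and -0.69, in the same order. Hspe1 was 94th in this order (r = 0.888) and Grpel1 200th (0.858), and the other members had r of -0.50 to 0.02. These values rest on the 4 group means: once these are removed, r with Hspd1 is 0.39 for Rragd, -0.08 for Hspe1 and -0.64 for Grpel1.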

How the data were processed

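Total RNA of 2 mouse striatal lines was measured on 12 Affymetrix arrays. The log2 levels per probe set were made by the authors with RMA, per the submitters' processing notes. RMA corrects background, forces a common distribution on the arrays and combines the probes of a set. The RMA version and chip definition are not stated in the labels or notes. Of 45101 probe sets 64 are controls and were left out. The platform annotation gave 34945 of the rest 1 gene, 932 several and 9160 none. It carries old symbols, updated by gene identifier for 34741.

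limma 3.58.1 in R 4.3.3 used 1 mean per group over the 12 arrays, with 8 residual and 3.01 prior degrees of freedom. It tested 5 contrasts, two-sided, with Benjamini-Hochberg adjustment over 45037 probe sets. The procedure was tested on simulated data. The brightest probe set stands for a gene where 1 value is given. All member probe sets are named. From each list the 2 called genes with the largest change in each direction and line are named, and for likeness the 5 highest r with Hspd1. Other list genes named (Spg7 and Afg3l2 in the other line, Timm9, Timm10b, Timm13, Chchd4, Nrf1, Dnaja2, Hyou1, Hspa8, Dnajc15 and Atf5 between the lines, and those beside a small count) were chosen after their values were seen. Members and lists were chosen with earlier results of these data known.

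Replicate numbers come from the labels, which do not say that they mark a shared culture or day. Deviations from the group means of same-numbered untreated arrays of the 2 lines correlated (r = 0.516, 0.402 and 0.577), so the numbers may pair that comparison. For heat shock in Q111 cells r was lower but positive (0.097, 0.180 and 0.241), against -0.293 to 0.192 for arrays of different number. For heat shock in Q7 cells it was 0.146, -0.339 and -0.101, and between the heat-shocked lines 0.345, -0.497 and -0.315. Replicate pairs had 10 to 60 identical values and were not duplicates. Depth does not apply to arrays, and the number of arrays limits the precision.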

Additional observations from a re-analysis of the deposited data

How the results depend on the processing

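The number of member probe sets called was recomputed under 11 other settings and with each of the 12 arrays left out. For heat shock in Q7 cells (6 called) it was 13 with array weights, 1 with the actin covariate, 3 at an adjusted p under 0.01 and 3 to 9 with an array left out. For heat shock in Q111 cells (8) it was 5 with 1 probe set per gene, where only 9 are tested, 13 with median centring, 4 with the covariate and within 1.5 times of 8 with an array left out. For the difference of effects (0) it was 4 with array weights and 0 to 1 with an array left out. At 33 °C (1) it was 0 with ribosomal centring, with only the groups compared and at 0.01, 4 with a variance trend, 3 with array weights and 0 to 2 with an array left out. After heat shock (3) it was 0 with median centring, with only the groups compared and at 0.01, 8 with array weights, 1 with the covariate and 0 to 3 with an array left out. The array weights stopped before they converged.

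The replicate block gave 5, 8, 0, 1 and 2 calls in the 5 comparisons, losing Clpp in Q7 cells and Trap1 after heat shock and no other member call. Median centring reversed differences in Q111 cells to 0.68, 0.65 and 0.42 for Hspa9, 0.42 and 0.45 for Trap1, 0.21 and 0.56 for Dnaja3 and 0.54 for Lonp1. By construction it adds 0.73 there. For the other changes the cause was not tested.

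Over all probe sets the 10864 calls in Q7 cells became 5525 with 1 probe set per gene, 23668 with weights, 567 with the covariate and 6377 at 0.01. In Q111 cells 18952 became 8758 with 1 probe set per gene, 7349 with the covariate, 11177 at 0.01 and 32640 with median centring. The 1209 for the difference became 2186 with ribosomal centring, 7499 with weights, 291 with the covariate, 171 at 0.01 and 280 to 1352 with an array left out. At 33 °C 3054 became 1962 with 1 probe set per gene, 4656 with weights and 1870 at 0.01. After heat shock 6932 became 4018 with 1 probe set per gene, 11189 with median centring and 23412 with weights. This count was 3745 with only the groups compared, 3334 at 0.01 and 3935 to 8079 with an array left out. Median centring moved the share of calls that were higher from 41.4% to 71.3% in Q7 cells, from 47.1% to 86.4% in Q111 cells, from 22.7% to 60.6% for the difference and from 30.7% to 73.8% after heat shock. Ribosomal centring moved it to 29% in Q111 cells, 11.3% for the difference and, from 46.7%, to 59.8% at 33 °C.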

Other observations

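Beyond Hspd1 and Hspe1, the run of 4 heat shock units was in the windows of 6 other genes, 4 of which were measured. Chordc1, a co-chaperone of the cytosolic ninety-kilodalton chaperones, rose by 1.35 (SE 0.15, adjusted p = 0.00014) in Q7 and 1.43 (SE 0.15, adjusted p = 6.9e-05) in Q111 cells. Kctd18 differed by 0.45 (SE 0.22) and 0.53 (SE 0.22), not called. Arpc2, of the actin branching complex, was lower by -0.36 (adjusted p = 0.049) in Q7 cells and by -0.14 in Q111 cells, not called, and Fam149a by -1.36 (adjusted p = 0.000342) and -0.44 (adjusted p = 0.0716). Genes with this run thus moved in both directions or were not called.

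Foxo3 and Esrra, regulators in the stress and biogenesis list, were lower in Q111 than in Q7 cells after heat shock by -1.12 (adjusted p = 0.0108) and -1.25 (adjusted p = 0.0051), with no call at 33 °C. Timm9, a partner of Timm10, was lower in Q111 cells at both temperatures, by -1.11 (adjusted p = 0.014) and -1.44 (adjusted p = 0.00209). Ppif, the matrix cyclophilin, was higher in Q111 cells after heat shock by 1.07 (adjusted p = 0.00254). In the test of the difference of heat shock effects limma called none of the 92 listed genes.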
